A study of Capra hircus with 20 samples.

Results

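Neuron-enriched miRNAs were followed in the hypothalamus of Jining grey goats through sexual development. The members are the rows of the deposited miRNA table whose name, without species prefix, arm or copy number, is miR-124, miR-124a, miR-124b, miR-128, miR-129, miR-137, miR-138, miR-149, miR-153, miR-218 or miR-488. This gave 8 of the 683 miRNAs in the table, from 6 of the 11 names: chi-miR-128-3p, chi-miR-128-5p, chi-miR-129-5p, chi-miR-129-3p, chi-miR-218, chi-miR-124a, chi-miR-137 and chi-miR-153, written without the goat prefix chi- from here on. No row was analysed here under the other 5 names. The rule goes by name only, though it was set with earlier results of these data known.

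The goats were 1, 60, 120 or 180 days old, with 5 biological replicates at each age and so 20 small RNA libraries of hypothalamus. Breed, housing, management and free feeding were common to all ages, the labels name no treatment or genotype, and the sources used here do not give the sex of the animals. The values are RPM, reads scaled to a common total of miRNA reads per library. Since bulk tissue was sequenced, fewer neurons and less miRNA per neuron cannot be told apart.

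A miRNA is cut from a hairpin precursor, and the strand that is loaded into an Argonaute protein pairs through its seed with target mRNAs and lowers their output. The other arm of the hairpin is mostly degraded. Neuron-enriched miRNAs are known to hold down transcripts of other cell types and to tune excitability and synapses. In the hypothalamus, neurons that release gonadotropin-releasing hormone start puberty. miR-128 restrains neuronal excitability in mice, and its goat hairpin lies within R3HDM1 in the RefSeq annotation of assembly ARS1.2. miR-129-5p takes part in synaptic downscaling in rodent neurons. miR-218 is enriched in motor neurons of mice, and its hairpin lies within SLIT3, a guidance-cue gene. miR-124 is the classic neuronal miRNA and represses PTBP1, a splicing regulator of non-neuronal cells. miR-137 acts in neuronal maturation, and the listed hairpin of miR-153 lies within PTPRN, a gene of secretory vesicles. For each of the 6 hairpins this annotation lists 1 locus; which build lies behind the deposited values is not stated in what was used here.

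All 8 members were read in all 20 libraries, with at least 21 reads in each library, and all 8 passed the filter for testing (1 RPM in at least 5 libraries). Libraries held between 4018002 and 8324928 miRNA reads, so that 3 reads, taken as the floor, correspond to 0.360 to 0.747 RPM. This floor covers counting error only. Replicate 2 of day 1 stood apart from the other libraries: it had the lowest depth and the lowest median Spearman correlation with them, 0.891, against 0.916 for the next lowest. A member's mean or log2 fold change below that moves by over 1.5 times without it is given with and without it. So is limma's main count of called miRNAs.

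The members covered a wide range of read abundance, with the miR-128 and miR-129 dominant strands far above the rest. Over the 20 libraries miR-128-3p averaged 16474 ± 11074 RPM (SD, n = 20), place 13 of all 683 miRNAs, and miR-129-5p averaged 10328 ± 7343 RPM, place 18. They made up 56.0% and 35.1% of the reads of the 8 members. miR-218 averaged 1236 ± 1226 RPM, miR-124a 896 ± 522 RPM and miR-129-3p 388 ± 653 RPM. Without replicate 2 of day 1 miR-129-3p averaged 246 ± 156 RPM (SD, n = 19). Below them were miR-137 at 52.8 ± 46.3 RPM, miR-128-5p at 27.2 ± 27.2 RPM and miR-153 at 12.7 ± 7.44 RPM. RPM is not divided by length, which is nearly the same for mature miRNAs, but adapters join some sequences better than others, so this is an order of reads rather than of molecules. As a group the 8 members took 2.92% ± 1.96 of the miRNA reads on day 1 (SD, n = 5 at each age), 2.80% ± 1.32 at 60 days, 3.70% ± 2.49 at 120 days and 2.34% ± 0.651 on day 180.

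Parts of that order recurred in nearly all libraries and parts did not. The order comes from the means of the same libraries, and the counts were not tested. miR-129-5p lay above miR-218 in 20 of 20 libraries, miR-124a above miR-129-3p in 19 and miR-129-3p above miR-137 in 19. miR-218 lay above miR-124a in only 13 of 20. miR-137 lay above miR-128-5p in 15 and miR-128-5p above miR-153 in 16. miR-128-3p lay above miR-129-5p in 3 of 5 libraries on day 1, 5 of 5 at 60 days, 5 of 5 at 120 days and 2 of 5 on day 180, a count made after the values were seen and not tested.

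**Figure D1:**
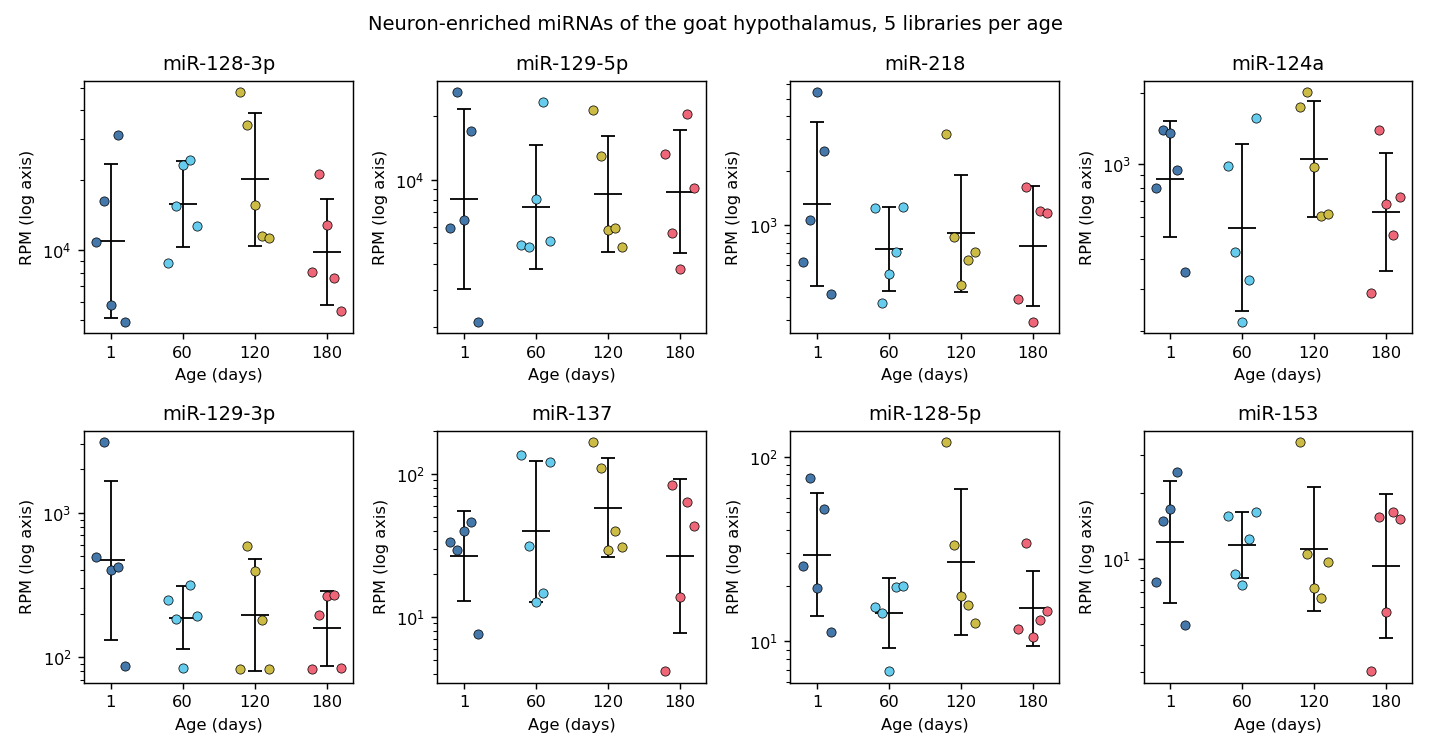
Level of each of the 8 members (RPM, log axis, each panel with its own range) by age in days; points are single libraries, 5 per age, and the bar and whiskers are the mean ± SD of the log values. The ages overlap in each panel; the highest miR-129-3p value, 3086 RPM, is replicate 2 of day 1.

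The first question was whether these miRNAs change with age between birth and day 180. By the main test no member was called. In limma's F test on log2(RPM + 1) over the 4 ages 0 of 8 had a Benjamini-Hochberg adjusted p under 0.05 and 0 an unadjusted p under 0.05, where 1.93% of all 414 tested miRNAs were called. Of all 414, 70 had an unadjusted p under 0.05. The smallest adjusted p among the members was 0.466, for miR-129-3p. On the recovered whole reads edgeR called 0 members over the 4 ages (1 at an unadjusted p under 0.05). DESeq2 called 1, again miR-129-3p (adjusted p = 0.0287). Over all tested miRNAs edgeR called 39 and DESeq2 90. limma called 8, and 5 without replicate 2 of day 1. Differences between the 4 age means made up 0.855% of the log2 variance of miR-129-5p and 2.79% of that of miR-153. They made up 21.9% for miR-128-3p, 22.6% for miR-128-5p and 22.9% for miR-129-3p. The values of miR-218 (9.34%), miR-137 (11.5%) and miR-124a (17.2%) lay between these. The median over all tested miRNAs was 18%. With 5 libraries per age such a share lies above 0 even without an effect of age, so it does not measure one.

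miR-128-3p, the loaded strand of miR-128, measured 10810.5, 16336, 5791, 31208 and 4934 RPM in replicates 1 to 5 of day 1. On day 60 it measured 8795, 15449, 23261, 24378 and 12763 RPM. On day 120 the 5 libraries held 47612, 34432, 15638, 11493 and 11322 RPM. Replicates 1 and 2 of day 120 were the highest of all 20 libraries, and the other 3 of that age lay within the range of day 60. On day 180 the values were 8052, 21302, 12831, 7576 and 5497 RPM. Means were 13816 ± 10737 RPM on day 1 (SD, n = 5 at each age), 16929 ± 6732 at 60 days, 24099 ± 16228 at 120 days and 11052 ± 6328 on day 180, and the ranges of neighbouring ages overlapped. The largest of its 6 pairwise differences was that of day 180 against day 120, a log2 fold change of -1.04 (SE 0.51, 95% interval -2.09 to 0.01, limma adjusted p = 0.997). Without replicate 1 of day 120 it was -0.73.

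miR-128-5p, the less abundant arm of miR-128, measured 25.7, 76.2, 19.5, 51.9 and 11.2 RPM on day 1. On day 60 it measured 15.4, 14.2, 6.89, 19.7 and 19.9 RPM. Replicates 1, 2 and 4 of day 1 lay above every day-60 library and the other two within the day-60 range; the lowest value, 6.89 RPM, rests on 30 reads. On day 120 it measured 119.6, 33.3, 17.5, 15.8 and 12.6 RPM and on day 180 11.6, 33.9, 10.6, 13.1 and 14.5 RPM. Replicate 1 of day 120, also the highest for miR-128-3p, held the most of all libraries. The largest of its differences was that of day 60 against day 1, a log2 fold change of -1.0 (SE 0.58, 95% interval -2.20 to 0.20, limma adjusted p = 0.354), and it was -0.67 without replicate 2 of day 1.

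miR-129-5p measured 5891, 25887, 6445, 16939 and 2128 RPM on day 1. On day 60 it measured 4923, 4777, 8145, 23331 and 5136 RPM, with replicate 4 far above the other four. On day 120 it measured 21307, 12948, 5798, 5937 and 4816 RPM, and on day 180 13182, 5580.3, 3789, 20496 and 9109 RPM. At each age 1 or 2 libraries held 12948 RPM or more and the others 9109 RPM or less. The means were 11458 ± 9765 RPM on day 1 (SD, n = 5 at each age), 9262 ± 7987 at 60 days, 10161 ± 7026 at 120 days and 10432 ± 6676 on day 180. Its largest difference, that of day 180 against day 60, was a log2 fold change of 0.24 (SE 0.61, 95% interval -1.01 to 1.48, limma adjusted p = 0.987). The bounds of this interval still admit a doubling or a halving. Without replicate 4 of day 180 the value was -0.07.

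miR-129-3p, the other arm of miR-129, came closest to a difference with age. It measured 498, 3086, 399.5, 422 and 87.4 RPM in the day-1 libraries and 249, 184, 84.3, 319 and 194 RPM in those of day 60. On day 120 the values were 83.1, 593, 394, 180.2 and 82.5 RPM, and on day 180 they were 83.2, 198, 267, 269.7 and 84.8 RPM. Replicates 1 to 4 of day 1 lay above every library of day 180 and replicate 5 within the day-180 range. In day 180 against day 1 the log2 fold change was -1.56 (SE 0.70, 95% interval -3.0 to -0.12), with an unadjusted p of 0.0346 and a limma adjusted p of 0.213. Without replicate 2 of day 1 the log2 fold change shrank to -0.88 (adjusted p = 0.540), and without replicate 5 of day 1 it was -2.16 and passed (adjusted p = 0.0404). DESeq2 called it lower in day 180 against day 1 (adjusted p = 0.0260) and in day 60 against day 1 (adjusted p = 0.0422), and edgeR did not (adjusted p = 0.0684 and 0.0783).

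miR-218 measured 622, 1067, 5397, 2555 and 419 RPM on day 1, the age with the widest range. It measured 1239, 372, 537, 711 and 1254 RPM on day 60 and 3185, 862, 467, 643 and 714 RPM on day 120. Replicate 1 of day 120 was again the high library of its age, as for miR-128-5p. On day 180 it measured 393, 1619, 293, 1194 and 1174 RPM, and the ranges of all 4 ages overlapped. Its largest difference was that of day 60 against day 1, a log2 fold change of -0.82 (SE 0.64, 95% interval -2.14 to 0.49, limma adjusted p = 0.534); without replicate 3 of day 1 it was -0.31.

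miR-124a, the neuronal repressor of PTBP1, measured 797, 1389, 1350.1, 949 and 352 RPM on day 1. It measured 983, 429, 219, 327 and 1571 RPM on day 60 and 1742, 2004, 976, 607 and 618 RPM on day 120. Replicates 1 and 2 of day 120 were the highest of all 20 libraries, and replicates 3 and 4 of day 60 were among the lowest. On day 180 it measured 289.8, 1392, 685, 504 and 728 RPM, and all 4 ages overlapped. Its largest difference was that of day 120 against day 60, a log2 fold change of 0.95 (SE 0.54, 95% interval -0.17 to 2.07, limma adjusted p = 0.913), and it was 0.62 without replicate 3 of day 60.

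miR-137, a miRNA of maturing neurons, measured 33.3, 29.4, 40.1, 46.3 and 7.60 RPM on day 1. It measured 136, 31.5, 12.6, 14.7 and 121 RPM on day 60 and 167, 110.0, 29.2, 39.8 and 30.5 RPM on day 120. On day 60 replicates 1 and 5 stood well above the other three, and on day 120 replicates 1 and 2 did, while replicates 1 to 4 of day 1 lay close together. On day 180 it measured 4.16, 83.3, 13.8, 63.1 and 43.1 RPM. Its largest difference was that of day 120 against day 1, a log2 fold change of 1.08 (SE 0.77, 95% interval -0.51 to 2.66, limma adjusted p = 0.444). It was 0.65 without replicate 5 of day 1 and 0.70 without replicate 1 of day 120.

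miR-153, the least abundant member, measured 7.79, 14.9, 17.0, 25.0 and 4.95 RPM on day 1. It measured 15.7, 8.47, 7.58, 12.3 and 16.3 RPM on day 60 and 34.5, 10.5, 7.33, 6.56 and 9.60 RPM on day 120. Replicate 1 of day 120 was the highest of all libraries, and the 5 day-60 libraries lay within the range of day 1. On day 180 it measured 3.01, 15.6, 5.66, 16.4 and 15.2 RPM. Its largest difference was that of day 180 against day 1, a log2 fold change of -0.33 (SE 0.53, 95% interval -1.42 to 0.76, limma adjusted p = 0.761), and it was 0.017 without replicate 1 of day 180.

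**Figure D2:**
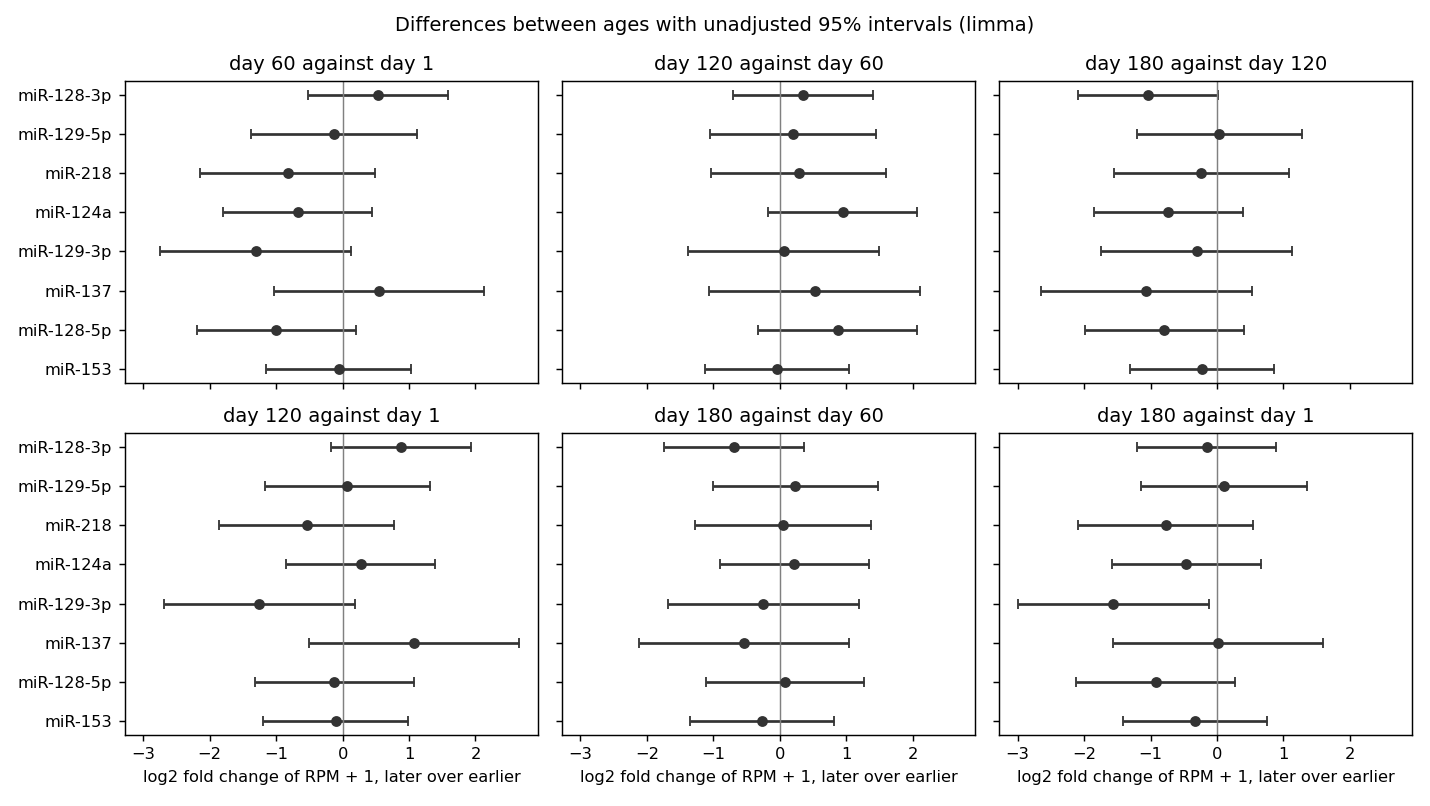
Log2 fold change of RPM + 1 (horizontal axis, later over earlier age) for the 8 members in the 6 pairs of ages; points are limma estimates and bars their 95% intervals, not adjusted for multiple tests. Only 1 interval, that of miR-129-3p in day 180 against day 1, leaves out 0 (-3.0 to -0.12), and its adjusted p was 0.213.

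By pair of ages, limma called 0 of 8 members in each. For day 60 against day 1 the background was 3.86% of 414 tested miRNAs, for day 120 against day 1 it was 3.38% and for day 180 against day 1 3.38%; for day 120 against day 60, day 180 against day 120 and day 180 against day 60 it was 0%, so that limma called no miRNA in these pairs. At an unadjusted p under 0.05 there were 0 members in each pair other than day 180 against day 1, where there was 1. Of all 414 there were 87, 93 and 86 in day 60, day 120 and day 180 against day 1. In day 120 against day 60, day 180 against day 120 and day 180 against day 60 there were 13, 3 and 20. edgeR called 0 members in each pair (1 at an unadjusted p under 0.05 in 5 of the 6). DESeq2 called miR-129-3p in day 60 against day 1 and in day 180 against day 1, and no member in any other pair. Over all tested miRNAs, DESeq2 called 86, 74 and 61 in day 60, day 120 and day 180 against day 1. In the same pairs edgeR called 57, 43 and 22, and neither called a miRNA in the other pairs. In the pairs with day 1, in that order, limma called 16, 14 and 14, and 6, 8 and 6 without replicate 2 of day 1. Of all 414 tested miRNAs, 46.6% had a log2 fold change above 0 in day 60 against day 1. The share was 52.4% in day 120 against day 60 and 33.8% in day 180 against day 120. In day 120 against day 1, day 180 against day 60 and day 180 against day 1 it was 43.7%, 37.9% and 37.4%. In day 60 against day 1, 2 of 8 members had a log2 fold change above 0. The median log2 value of the 8 was -0.40 and that of all tested miRNAs -0.04. In day 120 against day 60, 7 of 8 lay above 0 (median 0.32 against 0.03), and in day 180 against day 120 1 of 8 did (median -0.52 against -0.15). In day 120 against day 1 and in day 180 against day 60, 4 of 8 did (medians -0.02 against -0.12 and -0.10 against -0.15), and in day 180 against day 1 2 of 8 (median -0.39 against -0.25). Over all settings tried, the number above 0 ran from 2 to 4 in day 60 against day 1, from 5 to 8 in day 120 against day 60, from 0 to 3 in day 180 against day 120, from 2 to 6 in day 120 against day 1, from 1 to 6 in day 180 against day 60 and from 0 to 3 in day 180 against day 1. The pairs of ages share libraries, some members share a hairpin name and the members vary together, so these counts are not independent.

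The spread between libraries of an age was above the median of the more abundant miRNAs for 7 of the 8 members. The SD of log2(RPM + 1) within ages was 0.817 for miR-153, 0.874 for miR-128-3p, 0.913 for miR-124a and 0.935 for miR-128-5p. It was 1.09 for miR-129-5p, 1.14 for miR-218, 1.25 for miR-129-3p and 1.38 for miR-137, against a median of 0.858 over the 292 miRNAs at 10 RPM or more.

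The arms of a hairpin give a comparison that does not depend on how a library was scaled. Arms were paired by name, and whether both rows of a pair come from a single locus was not checked. The ratio of miR-128-3p to miR-128-5p was lowest on day 1, at 420.1, 215, 297, 601 and 439.5 in replicates 1 to 5. On day 60 it was 569.7, 1086, 3375, 1239 and 641. On day 120 it was 398, 1035, 893, 726 and 899, and on day 180 693, 628, 1209, 578 and 378. Of the day-60 libraries 4 of 5 lay above every day-1 library, and replicate 1, at 569.7, lay below the highest day-1 value of 601. The mean log2 ratio was 10.11 ± 1.02 on day 60, against 8.54 ± 0.57 on day 1 (SD, n = 5 each), a 2.98-fold higher ratio (two-sided exact permutation test, p = 0.0159, adjusted over the 6 pairs p = 0.0952). In day 120 against day 1 the ratio was 2.02-fold higher (exact p = 0.0317, adjusted p = 0.0952), and in day 180 against day 1 1.75-fold higher (exact p = 0.0794, adjusted p = 0.159). None of the 6 pairs passed after adjustment; 252 splits of 5 against 5 allow no p under 0.00794. Day 60 against day 1 passed without replicate 1 of day 60 (adjusted p = 0.0476), and day 120 against day 1 without replicate 1 of day 120 (adjusted p = 0.0476). Without replicate 2 of day 1, the library that stood apart, the log2 differences were 1.38 and 0.82 (adjusted p = 0.143 for each).

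**Figure D3:**
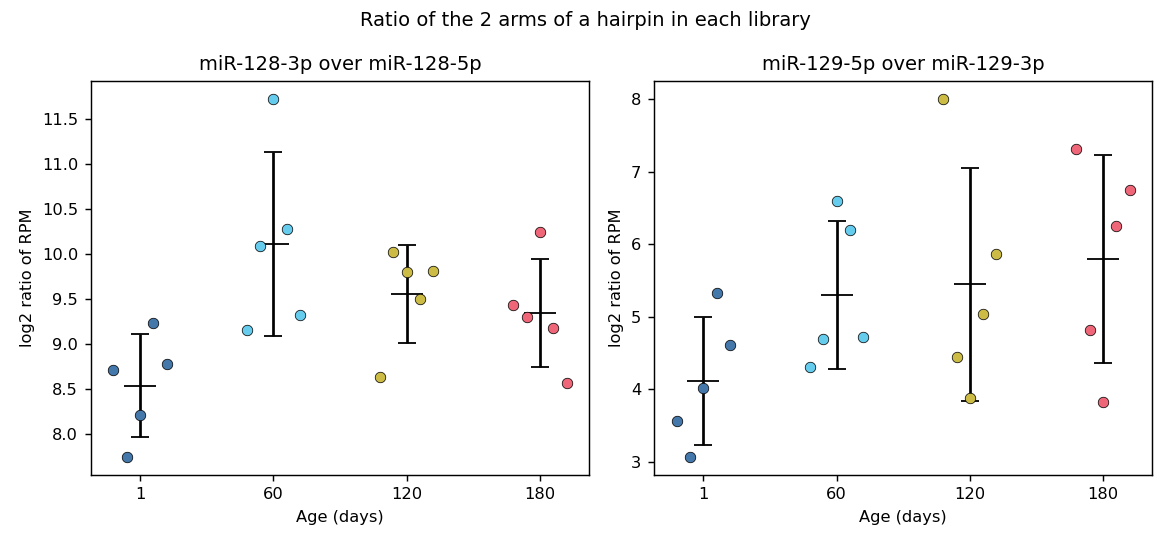
Log2 ratio of the more abundant to the less abundant arm (vertical axis) by age in days, for miR-128 (3p over 5p, left) and miR-129 (5p over 3p, right); points are single libraries, 5 per age, with mean ± SD. The miR-128 ratio averages 8.54 on day 1, 10.11 at 60 days, 9.55 at 120 days and 9.34 on day 180, and the miR-129 ratio 4.12, 5.30, 5.45 and 5.79.

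For miR-129, with the 5p arm on top, the ratio was 11.8, 8.39, 16.1, 40.1 and 24.4 on day 1 and 19.8, 25.9, 96.6, 73.1 and 26.5 on day 60. It was 256, 21.8, 14.7, 32.9 and 58.3 on day 120 and 158, 28.2, 14.2, 76.0 and 107 on day 180. The SD of the log2 ratio was 0.88 on day 1, 1.02 at 60 days, 1.61 at 120 days and 1.43 on day 180, and each age overlapped with the others. The geometric mean was 17.3 on day 1, 39.5 at 60 days, 43.6 at 120 days and 55.3 on day 180. In day 180 against day 1 the ratio was 3.19-fold higher (two-sided exact permutation test, p = 0.0635, adjusted over the 6 pairs p = 0.262), and in day 60 against day 1 2.28-fold higher (exact p = 0.0873, adjusted p = 0.262). No pair passed. Without replicate 2 of day 1 the log2 difference of day 180 against day 1 was 1.41, against 1.68 with it (adjusted p = 0.548).

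The second question was whether the members vary together from library to library. Each replicate was a single library, so animal, dissection and library preparation cannot be told apart. All 28 pairs of members had a positive Pearson correlation of log2(RPM + 1) over the 20 libraries, and 12 passed a permutation test with adjustment over the 28. As deviations from the age means 11 passed, all of them among the 12. Over the 292 miRNAs at 10 RPM or more, 61.4% of pairs were positive, with a median r of 0.124 and a median size of r of 0.293, against a median r of 0.468 over the member pairs. The smallest r among the 12 called pairs was 0.535, and 14.7% of the pairs of these 292 miRNAs had an r at or above it. The closest pair was miR-218 with miR-153 (r = 0.860, rho = 0.929, permutation p = 1e-05 for each, the smallest that the 100000 permutations can give, adjusted p = 0.00028; r = 0.884 within ages and 0.905 without the 2 libraries farthest out in miR-218). miR-124a and miR-137 had r = 0.787 and rho = 0.744 (permutation test, adjusted p = 0.00042 and 0.00146), and r = 0.853 within ages. miR-137 and miR-153 had r = 0.777 and rho = 0.797 (permutation test, adjusted p = 0.000747 and 0.00042), and r = 0.823 within ages.

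**Figure D4:**
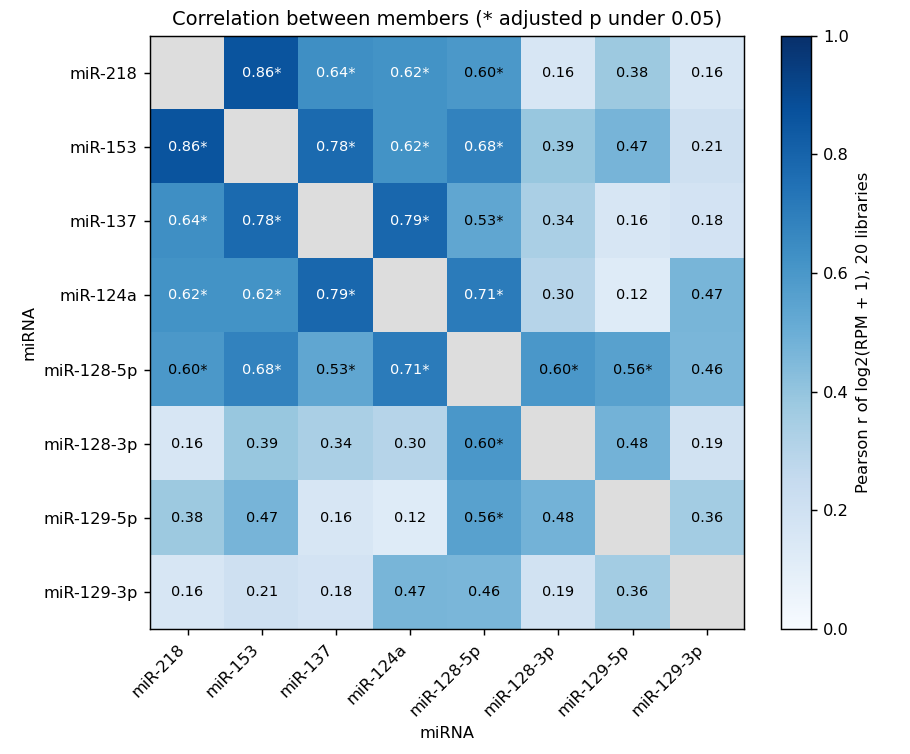
Pearson correlation of log2(RPM + 1) over the 20 libraries for each pair of the 8 members; a darker cell is a higher r and a star marks an adjusted permutation p under 0.05. miR-218, miR-153, miR-137, miR-124a and miR-128-5p form a block with r from 0.535 to 0.860, and miR-129-3p has no star.

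The members that varied together were miR-218, miR-153, miR-137, miR-124a and miR-128-5p: all 10 pairs among these 5 passed. They were grouped after their correlations were seen, and miR-218 with miR-128-5p did not pass as deviations from the age means (adjusted p = 0.0642). The remaining calls were those of miR-128-5p with miR-128-3p (r = 0.598, rho = 0.538; permutation test, adjusted p = 0.0147 and 0.0388) and with miR-129-5p (r = 0.559, rho = 0.486; adjusted p = 0.0241 and 0.0652). Several calls rested on few libraries. For those with miR-128-3p and miR-129-5p, without the 2 libraries farthest out in the abundant strand r was 0.393 (adjusted p = 0.228) and 0.507 (adjusted p = 0.0879), and without replicate 1 of day 120 it was 0.448 and 0.481 (adjusted p = 0.109 and 0.0829). Without replicate 2 of day 1 that of miR-129-5p with miR-128-5p was 0.467 (adjusted p = 0.0928). Within the 5, miR-137 with miR-128-5p had r = 0.374 (adjusted p = 0.252) and miR-218 with miR-124a 0.547 (adjusted p = 0.0598) without the 2 libraries farthest out in the first-named miRNA. Without replicate 1 of day 120 miR-218 with miR-128-5p had r = 0.491 (adjusted p = 0.0829) and miR-137 with miR-128-5p 0.414 (adjusted p = 0.146). miR-128-3p and miR-129-5p, the dominant strands, had r = 0.478 and rho = 0.374 with each other (permutation test, adjusted p = 0.0685 and 0.172). miR-128-3p had r = 0.159 with miR-218 and 0.300 with miR-124a, and miR-129-5p had r = 0.156 with miR-137 and 0.124 with miR-124a, none past the test. miR-129-5p and miR-129-3p, arms of the same hairpin by name, had r = 0.357 and rho = 0.269 (permutation test, adjusted p = 0.180 and 0.367).

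Some single libraries, picked after the values were seen, show the shared variation, and others do not. Replicate 1 of day 120 was the highest of all 20 in miR-128-3p, miR-137, miR-128-5p and miR-153 and the second highest in miR-218 (3185 RPM), and held 1742 RPM of miR-124a. Replicate 5 of day 1 was low in these members, with 4.95 RPM of miR-153, 7.60 RPM of miR-137, 352 RPM of miR-124a and 419 RPM of miR-218. Replicate 1 of day 180 held the least miR-137 (4.16 RPM) and miR-153 (3.01 RPM) of all, with 289.8 RPM of miR-124a, while its miR-129-5p, at 13182 RPM, was the second highest of its age. In other libraries the members went apart. Replicate 3 of day 1 held the most miR-218 of all (5397 RPM) but 19.5 RPM of miR-128-5p. Replicate 2 of day 120 held the most miR-124a (2004 RPM), with 862 RPM of miR-218 and 10.5 RPM of miR-153. Without replicate 1 of day 120, 10 of the 28 pairs passed, and without replicate 2 of day 1, the library that stood apart, 11 did. Those 10 did not hold the pairs of miR-128-5p with miR-128-3p, miR-129-5p, miR-218 and miR-137. They therefore included pairs outside the 12 called with all libraries. miR-137 with miR-128-5p was the least firm of the 12, passing in 14 of the 20 fits that left out 1 library.

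**Figure D5:**
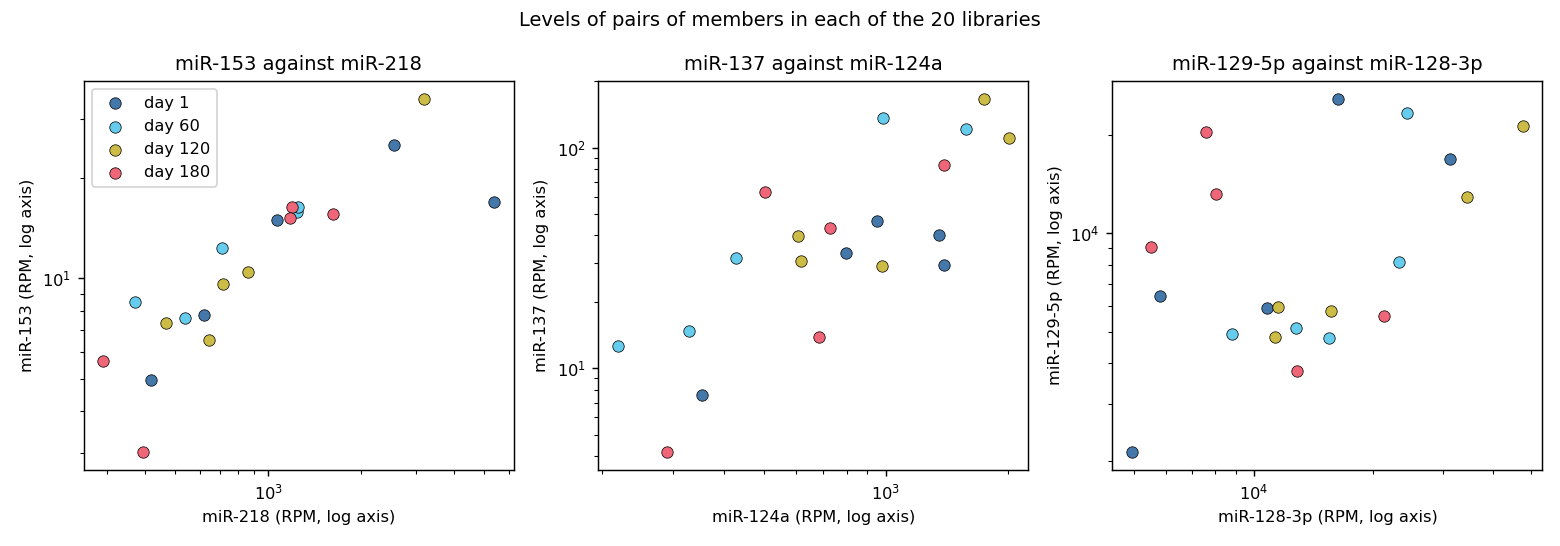
Levels of 3 pairs of members in the 20 libraries (RPM, both axes logarithmic), coloured by age. miR-153 follows miR-218 (r = 0.860) and miR-137 follows miR-124a (r = 0.787) across all ages, while miR-129-5p is scattered against miR-128-3p (r = 0.478).

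For each member the miRNAs most like it were taken from 270 known miRNAs with a mean of at least 10 RPM, by Spearman's rho over the 20 libraries, as a description. For miR-218 they were miR-153 (rho = 0.929) and miR-137 (0.791), both among the 8, and for miR-153 they were miR-218 and miR-873-5p (0.817). For miR-137 they were miR-499-5p (0.907) and miR-136-3p (0.856), for miR-124a miR-708-5p (0.877) and miR-30e-5p (0.874), and for miR-128-5p miR-124a (0.765) and miR-708-5p (0.749). The dominant strands had other neighbours: miR-222-3p (0.782) and miR-2411-3p (0.648) for miR-128-3p, and miR-2411-5p (0.725) and miR-184 (0.626) for miR-129-5p. For miR-129-3p they were miR-874-3p (0.792) and miR-487b-3p (0.779).

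Other neuronal miRNAs were not called with age either. A list of neuronal names matched 14 rows, those of miR-9, miR-7, miR-134, miR-135a, miR-135b, miR-379, miR-487b and miR-410, 12 of them tested (no row was analysed here under the names miR-132, miR-212 and miR-384), and limma called 0 of 12 in each of the 6 pairs of ages and over the 4 ages, with at most 1 at an unadjusted p under 0.05. edgeR also called 0, and DESeq2 called 1, miR-379-3p in day 60 against day 1. Its summed level was set by miR-9-5p (174740 RPM on average) and miR-7-5p (83586 RPM), which is known from neuroendocrine cells. The sum ran from 177469 to 379976 RPM on day 1, from 104931 to 388493 at 60 days, from 205055 to 317068 at 120 days and from 102388 to 453624 on day 180. Libraries with a higher sum had more miR-218 (r = 0.645, rho = 0.674; permutation test, adjusted over 20 relations p = 0.0201 and 0.0191; r = 0.637 within ages, 0.579 without the 2 libraries farthest out in the sum) and had r = -0.033 with miR-128-3p (rho = -0.125; permutation test, adjusted p = 0.945 and 0.812).

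Markers of other cell types were set beside miR-218 and miR-128-3p in the same way, after the correlations between members had been seen. Of the 18 relations of 9 such lists, 1 passed. The summed RPM of the 7 rows of microglia and immune miRNAs was higher where miR-128-3p was higher (r = 0.695, rho = 0.668, permutation test, adjusted p = 0.0104 and 0.0191). Within ages r was 0.709, and it was 0.494 without the 2 libraries farthest out in the sum. Most of the sum was miR-146b-5p (1560.2 RPM on average), with miR-150 at 312, miR-155-5p at 162 and miR-223-3p at 2.50 RPM. No row was analysed here under the listed name miR-142. The 7 rows were not set beside miR-128-3p one by one. Their sum ran from 796 to 4513 RPM on day 1, from 1025 to 1960 at 60 days, from 1351 to 7521 at 120 days and from 551 to 3311 on day 180, and their part in the level of miR-128-3p was not tested. Lists of oligodendrocytes (3 rows), astrocytes (9), vessels (6), erythroid cells (4), liver (4), muscle (5), pituitary and epithelium (5), and multiciliated cells with choroid plexus (11) had r between -0.507 and 0.268 with the 2 members, none past the test. Within all lists of other cell types limma called miR-449a-5p, known from multiciliated cells, lower at the 3 later ages against day 1, and miR-122, the liver miRNA, higher in day 60 against day 1, and no other row in any pair of ages. miR-449a-5p averaged 6.07 RPM. In pairs with day 1 edgeR or DESeq2 also called rows of miR-29a, miR-29c, miR-34c, miR-204, miR-206, miR-133b and miR-219. The directions of these added calls are not given here. The part of all these rows in the levels of the members was not tested.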

How the data were processed

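Per the labels' protocols, RNA was taken up in Trizol and small RNA libraries were built from 3 µg of total RNA with the NEBNext kit. The submitters' processing notes name Bowtie. Not given in the sources used here: its version, the genome build, the miRNA catalogue and the read counter. RPM values per miRNA and library (reads scaled to a common total of miRNA reads) were deposited; the column names say TPM, but no division by length was found. Values below 1000 reads were whole multiples of 1 read in 100% of cases, within 0.1 read, and this returned the depth of each library (median 6978230 reads). No 2 libraries of an age agreed within sampling noise. Of the 683 rows, 407 carried known names and 276 were numbered predictions, which no rule named.

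All 20 libraries entered 1 limma fit (version 3.58.1, R 4.3.3, variance trend, two-sided) on log2(RPM + 1) with 4 age means and no covariate. miRNAs at 1 RPM in at least 5 libraries, 414 in all, were tested, with Benjamini-Hochberg adjustment over them at 0.05 in each comparison. Fold changes on this scale understate those of low miRNAs. Arm ratios were compared by exact permutation of libraries, and correlations by 100000 permutations. Alternatives were edgeR 4.0.16 and DESeq2 1.42.0 on the recovered reads, other pseudocounts, filters and scaling, a replicate block and leaving out each library. limma, edgeR and the exact permutation test were tried on simulated data first. DESeq2, the correlation permutations and the sign flips were not. All members were named, with the 2 known miRNAs of highest Spearman's rho with each. The members and lists were chosen with earlier results of these data known. The relations of lists with miR-218 and miR-128-3p, 20 in all and adjusted over them, were added after values were seen, as was the miR-129 arm ratio.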

Additional observations from a re-analysis of the deposited data

Results flagged for a closer look

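Within the 40 groups of 5 libraries (8 members and 2 arm ratios at 4 ages), 6 held a library whose gap to its nearest neighbour was over 0.71 of the whole range; for normally distributed values chance marks about 1 in 20 groups, and the member levels were looked at as RPM, whose distribution is skewed. On the log2 scale 2 of the 6 remained over that limit, the day-120 group of miR-153 and the day-180 group of miR-128-5p. Replicate 1 of day 120 accounted for 3 of them: it held 119.579 RPM of miR-128-5p, with 33.3 RPM in the next library, 34.4797 RPM of miR-153, with 10.5 RPM in the next, and 3185.22 RPM of miR-218, with 862 RPM in the next. Replicate 2 of day 1, the library of lowest depth, held 3086.11 RPM of miR-129-3p, with 498 RPM in the next. Replicate 4 of day 60 held 23331 RPM of miR-129-5p, with 8145 RPM in the next. Replicate 2 of day 180 held 33.9371 RPM of miR-128-5p, with 14.5 RPM in the next.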

How the results depend on the processing

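The count of 0 members called held in all 7 comparisons under 7 alternatives: both pseudocounts, both filters, median-of-ratios scaling, edgeR and no variance trend, and also with only the libraries of the 2 ages compared. Under DESeq2 it was 1 over the 4 ages, in day 60 against day 1 and in day 180 against day 1. Leaving out each library in turn gave 0 to 1 in day 180 against day 1, and 0 elsewhere. With at least 21 reads per library no member was near the floor of 3 reads. Of the 48 differences, 24 changed sign under some setting, the largest of these being 0.54 on the log2 scale in size. Leaving out 1 library, miR-129-5p in day 180 against day 60 ran from -0.070 to 0.65, and miR-153 in day 180 against day 1 from -0.61 to 0.017. The log2 arm ratio of miR-128 ran from 1.17 to 1.81 in day 60 against day 1 and from 0.82 to 1.25 in day 120 against day 1. That of miR-129 ran from -0.49 to 0.54 in day 120 against day 60 and from -0.050 to 0.98 in day 180 against day 120. Correlations called numbered 11 to 13 under other settings, 8 without the 2 libraries farthest out and 10 to 14 leaving out 1 library. The calls over all miRNAs moved more: over the 4 ages they numbered 8, and 30 with median-of-ratios scaling, 39 with edgeR and 90 with DESeq2. In day 60, day 120 and day 180 against day 1 they numbered 16, 14 and 14, with 40, 36 and 23 by median-of-ratios scaling, 57, 43 and 22 by edgeR, 86, 74 and 61 by DESeq2, and 2 to 43, 7 to 29 and 5 to 31 leaving out 1 library; the cause was not tested. Replicate numbers were shared by the ages. Deviations of same-numbered libraries correlated between -0.714 and 0.536 (median 0.0695, over 0.1 in 11 of 30 pairs). No steady pairing was seen, and whether the numbers carry a shared batch was not tested. With the replicate block 0 members were called in all 7 comparisons, and miR-128 in day 60 against day 1 had an adjusted p of 0.25 by sign flips, which over 5 pairs allow no p under 0.0625 and so could not pass.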

Other observations

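The miRNA with the lowest Spearman's rho against a member, among known miRNAs at 10 RPM or more, was miR-28-3p for 4 of the 8: miR-137 (rho = -0.874), miR-218 (-0.845), miR-153 (-0.820) and miR-124a (-0.815). For miR-129-5p it was miR-27b-3p (-0.839), while miR-28-3p had rho = -0.135 with it. miR-28-3p had rho = -0.104 with miR-128-3p, -0.143 with miR-129-3p and -0.567 with miR-128-5p. These values were looked up after the positive correlations had been seen and were not tested.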
